A study of Rattus norvegicus with 10 samples.

Results

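IGHJ2 is a joining gene of the rat immunoglobulin heavy chain locus, and it was the first IGHJ gene named in 875061 of the 1615896 productive reads of 10 spleen libraries (54.2%). A read is here a deposited sequence whose copies had been collapsed by their molecular tag, and a productive read is in frame and without a stop codon. All reads of this kind were taken, and they are set against the productive reads with IGHJ3 (392513 reads), IGHJ4 (203603 reads) and IGHJ1 (144719 reads), the other IGHJ genes named. The animals were Wistar rats, an outbred stock, and the authors describe them as littermates that shared other environmental exposures. Of these, 5 were immunized with recombinant human HuD, a neuronal RNA-binding protein, and 5 with keyhole limpet hemocyanin carrying dinitrophenyl groups, called DNP. In both groups Freund's complete adjuvant was used once, followed by 3 boosts in incomplete adjuvant, and there were no unimmunized animals. Each animal gave 1 library of heavy chain variable domains, amplified from RNA of whole spleen cell suspensions. The animals of a group are numbered 1 to 5, and no link between the same numbers is stated.

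In a developing B cell, the heavy chain variable domain is assembled by joining an IGHD gene to an IGHJ gene and then an IGHV gene to this pair. The joins are trimmed and filled with added bases, and the resulting junction encodes the third complementarity-determining region (CDR3), often the main contact with antigen. The IGHJ gene thus encodes the last residues of CDR3 and the whole of framework 4 (FR4), the strand that closes the variable domain. After immunization, B cells that bind the antigen expand and mutate their variable domains.

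The libraries held 60647 to 259834 productive reads, and the IGHJ2 reads numbered 85299 to 131057 in HuD animals and 37813 to 126998 in DNP animals. Several IGHJ genes were named for only 120 of the IGHJ2 reads, whereas 14.0% named more than 1 IGHV gene and were given to the first in the list. All libraries came from the same sequencing run. In RNA from whole spleen, more cells with a rearrangement and more RNA per cell cannot be told apart.

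The FR4 sequences show what separates IGHJ2 from the other IGHJ genes in the protein. The most frequent FR4 of each gene is given, which the annotation used to name the gene, so that these sequences describe the reads and are not tested between genes.
IGHJ2: WGQGVMVTVSS
IGHJ3: WGQGTLVTVSS
IGHJ4: WGQGASVTVSS
IGHJ1: WGPGTMVTVSS
Among these sequences the valine at position 5, counted from the first residue after CDR3, is found with IGHJ2 only, and the methionine at position 6 is shared with IGHJ1. On average over 10 animals, the IGHJ2 sequence was carried by 86.2% ± 3.58 (SD) of the IGHJ2 reads, the IGHJ3 sequence by 88.6% ± 3.46 of the IGHJ3 reads and the IGHJ1 sequence by 86.8% ± 3.29 of the IGHJ1 reads. The IGHJ4 sequence was carried by 46.1% ± 39.3 of the IGHJ4 reads, a spread that is described below with the IGHV genes.

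IGHJ2 was the most used IGHJ gene in all 10 animals. Its share of the productive reads was 54.6%, 58.4%, 50.7%, 57.0% and 54.5% in HuD1 to HuD5, and 55.5%, 52.9%, 62.3%, 48.9% and 52.1% in DNP1 to DNP5. The groups overlapped, with 55.0% ± 2.90 in HuD animals and 54.3% ± 5.06 in DNP animals (SD, n = 5 each). The difference of 0.704 percentage points was smaller than the spread between animals (exact permutation test over all sets of 5 of 10 animals, two-sided p = 0.786, adjusted p = 0.786 over the 5 comparisons of the immunogens). With sequenced copies in place of reads the difference turned to -0.939 percentage points. The other IGHJ genes followed in the order IGHJ3 (24.0% ± 2.72, n = 10), IGHJ4 (12.4% ± 4.36) and IGHJ1 (8.97% ± 2.27), and no animal had as much of any of these as of IGHJ2. The ranges of IGHJ4 (4.73% to 20.8%) and IGHJ1 (6.35% to 12.5%) overlapped, and these genes were not tested against each other.

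**Figure D1:**
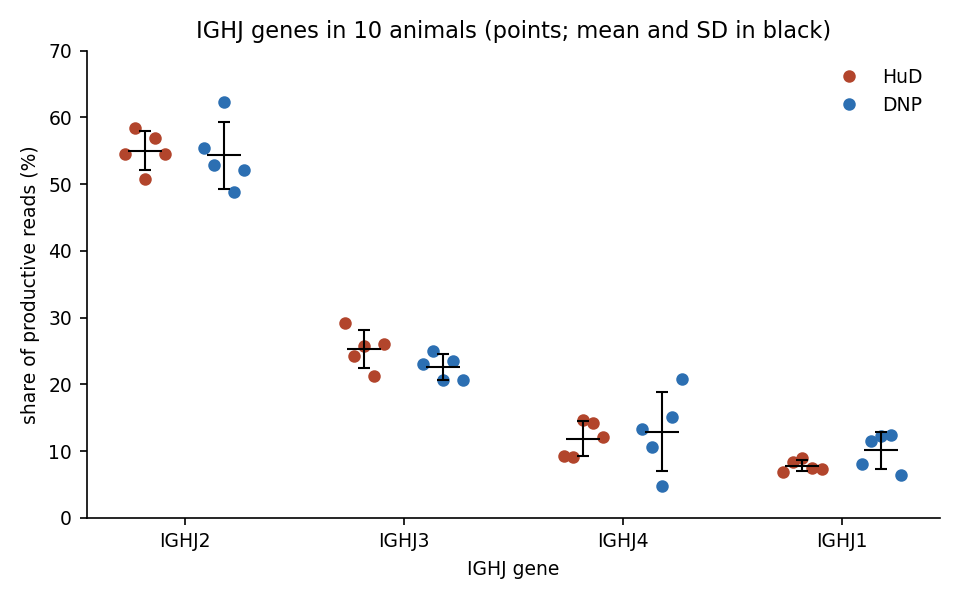
Share of the productive reads (%) with each IGHJ gene, with 1 point per animal, the 5 HuD animals left of the 5 DNP animals, and the mean and SD in black. IGHJ2 lies between 48.9% and 62.3% in all animals, and IGHJ3, the next gene, between 20.6% and 29.2%.

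The lead of IGHJ2 was smaller among unique CDR3s than among reads. When each CDR3 was counted once per animal, IGHJ2 held 51.0% ± 2.69 of the unique CDR3s (n = 10), which was 3.71 percentage points below its share of the reads (exact sign-flip permutation test over 10 animals, two-sided p = 0.00195, the smallest this test can give). Unproductive reads carried IGHJ2 in 51.8% ± 2.42 of those with an IGHJ name. This was 2.89 percentage points lower than in the productive reads of the same animals (exact sign-flip test, p = 0.00391). Failed rearrangements and sequencing errors cannot be told apart in unproductive reads. The 100 most abundant CDR3s of each animal had IGHJ2 in 53.9% ± 5.69, a difference of 2.68 percentage points from all unique CDR3s that did not pass the same exact test (p = 0.119). IGHJ2 was thus the most frequent IGHJ gene among reads, unique CDR3s and abundant CDR3s on average.

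The IGHV gene encodes the largest portion of the variable domain, and the IGHV genes that led among IGHJ2 reads were also frequent with the other IGHJ genes. Of the 10 leading genes by mean share of IGHJ2 reads, 7 belong to the IGHV5 subgroup: IGHV5-22, IGHV5-25, IGHV5-31, IGHV5-29, IGHV5-20, IGHV5-7 and IGHV5S13. IGHV5-22 averaged 10.1% of the IGHJ2 reads and 7.87% of the other reads. IGHV5-25 averaged 8.94% of the IGHJ2 reads and 9.70% of the other reads, and IGHV5-31 averaged 8.63% of the IGHJ2 reads and 8.58% of the other reads. The remaining genes of these 10 were IGHV3-1, IGHV4-2 and IGHV3-3. Within these 10 genes the reads with IGHJ2 made up between 50.3% (IGHV5S13) and 68.4% (IGHV4-2) of each gene's reads.

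A small number of IGHV genes were joined to IGHJ2 more or less often than to the other IGHJ genes. With edgeR's quasi-likelihood test and the animal as a term, 6 of 81 IGHV genes passed an adjusted p of 0.05 (7.41% of those tested), 3 of them higher and 3 lower with IGHJ2. IGHV1-57 was the lowest with IGHJ2: it averaged 0.0333% ± 0.0479 of the IGHJ2 reads and 0.184% ± 0.0894 of the other reads (log2 fold change -3.54, adjusted p = 0.00973), and was lower with IGHJ2 in 10 of 10 animals. IGHV2-16 showed the opposite pattern in 10 of 10 animals, with 0.0748% ± 0.0666 of the IGHJ2 reads and 0.0163% ± 0.0151 of the other reads (log2 fold change 2.17, adjusted p = 0.0155). These were the only IGHV genes of the 81 that moved the same way in all 10 animals (2.47%). Both are rare, with 374 and 676 IGHJ2 reads in all.

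IGHV4-2 was the only gene of the 10 leading IGHV genes that passed. It held 6.84%, 3.95%, 1.36%, 2.09% and 1.05% of the IGHJ2 reads of HuD1 to HuD5 and 0.780%, 14.5%, 1.65%, 2.11% and 4.73% in DNP1 to DNP5. Its mean was 3.90% ± 4.17 of the IGHJ2 reads, against 2.16% ± 2.95 of the other reads (log2 fold change 1.10, adjusted p = 0.0495), and it was higher with IGHJ2 in 8 of 10 animals. DNP4 and DNP5 went the other way. The other genes that passed are named after their values were seen. IGHV1-43 averaged 0.726% of the IGHJ2 reads and 3.71% of the other reads (log2 fold change -1.51, adjusted p = 0.0155), with the high values in DNP1, DNP3, DNP4 and DNP5, where it held 3.80% to 10.9% of the other reads. IGHV6-8 was lower (log2 fold change -1.57, adjusted p = 0.0477) and IGHV6-14 higher with IGHJ2 (log2 fold change 2.49, adjusted p = 0.0307), the last on 129 IGHJ2 reads and 21 other reads.

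Most of these calls depended on single animals. The number of genes that passed fell to 1 without DNP1 or HuD5, to 2 without HuD4, and to 3 without DNP3, HuD1, HuD2 or HuD3. IGHV1-57 passed in 10 of the 10 fits that left out an animal, IGHV1-43 in 8 (adjusted p = 0.0504 without DNP1 and 0.0653 without HuD5 in edgeR), IGHV2-16 in 7 (0.0504 without DNP1, 0.0526 without HuD4 and 0.0934 without HuD5), and IGHV4-2, IGHV6-8 and IGHV6-14 in 2 each. Among reads naming a single IGHV gene, 3 genes passed, all lower with IGHJ2. Counted once per pair of CDR3 and IGHV gene, the log2 fold changes were smaller, at -1.65 for IGHV1-57, 0.93 for IGHV2-16 and -0.83 for IGHV1-43, and these genes still passed.

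Within the IGHJ2 reads, IGHV3-1 was higher in DNP animals, and several other IGHV genes set 4 of the DNP animals apart from DNP2 and the HuD animals. In the edgeR test between the immunogens, 2 of 76 IGHV genes passed an adjusted p of 0.05 (2.63%), both lower in HuD than in DNP animals. IGHV3-1 held 2.43%, 5.59%, 3.30%, 3.73% and 2.26% of the IGHJ2 reads in HuD1 to HuD5 and 13.5%, 15.8%, 12.4%, 15.2% and 8.13% in DNP1 to DNP5. The groups did not overlap, and the mean was 3.46% ± 1.33 in HuD animals and 13.0% ± 3.02 in DNP animals (log2 fold change -2.25, adjusted p = 0.00873). Without HuD5 its adjusted p was 0.0601, with the groups still apart. When each pair of CDR3 and IGHV gene was counted once, the log2 fold change of IGHV3-1 was -1.14 with an adjusted p of 0.0726, and no gene passed in edgeR (23 at an unadjusted p under 0.05). Without a filter on rare genes, the adjusted p of IGHV3-1 was 0.110.

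IGHV5S11, named after its values were seen, also fell in HuD animals (log2 fold change -4.75, adjusted p = 0.00873). It held 0.0320% to 0.0680% of the IGHJ2 reads in the HuD animals and 1.50%, 0.0489%, 1.39%, 1.80% and 1.78% in DNP1 to DNP5. DNP2 was thus at the level of the HuD animals. Counted once per pair of CDR3 and IGHV gene, the log2 fold change of IGHV5S11 was -2.80 (adjusted p = 0.0541 in edgeR). IGHV5-29 showed the reverse arrangement, with 9.49%, 9.14%, 15.3%, 19.5% and 8.48% in HuD1 to HuD5 and 0.392%, 6.49%, 0.0291%, 0.556% and 0.385% in DNP1 to DNP5. The HuD and DNP animals did not overlap for this gene, and DNP2 lay again next to the HuD animals. Its difference did not pass (log2 fold change 2.69, adjusted p = 0.146), but it did without DNP2 (5.31, adjusted p = 9.23e-05). With all animals it passed in DESeq2 (2.93, adjusted p = 0.0213) and limma (4.73, adjusted p = 0.0101), and with the animal number as a block edgeR gave 4.72 (adjusted p = 0.0557). In edgeR's test of IGHJ2 against the other IGHJ genes, none of IGHV3-1, IGHV5S11 and IGHV5-29 passed. Their log2 fold changes were 0.703, -0.373 and 0.0789 (edgeR, adjusted p = 0.183, 0.611 and 0.868). This test spans the animals of both immunogens. Whether the differences of these genes between the immunogens are particular to IGHJ2 was not tested.

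**Figure D2:**
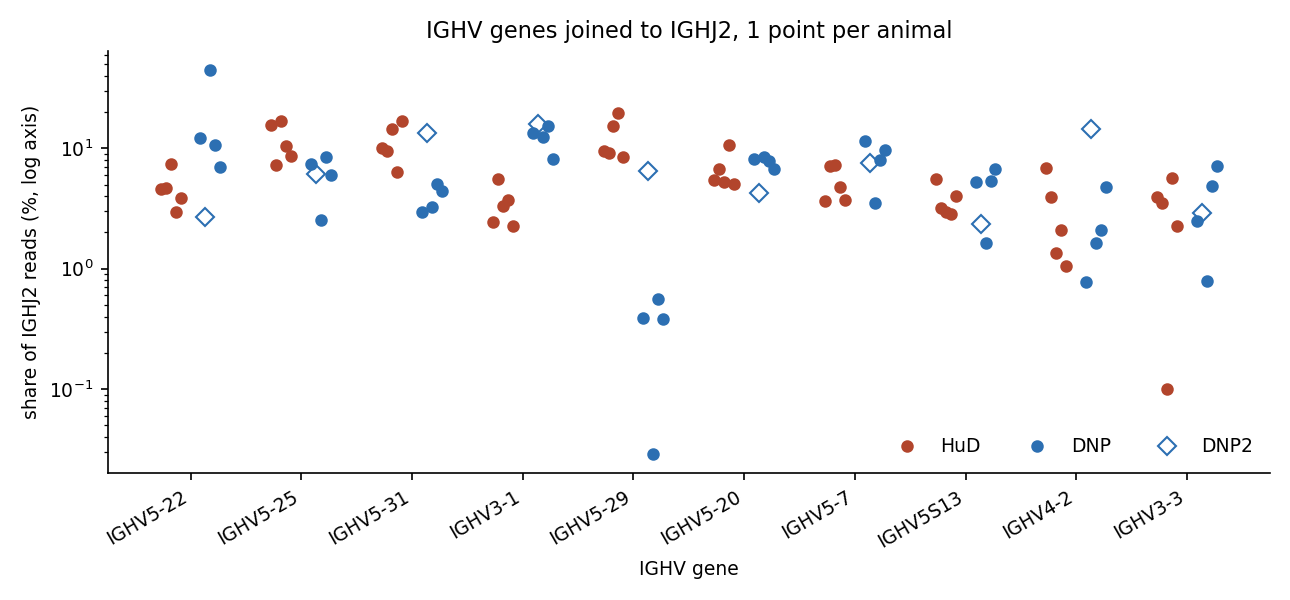
Share of the IGHJ2 reads (%, log axis) held by each of the 10 leading IGHV genes, with 1 point per animal, HuD left of DNP, and DNP2 as an open diamond. IGHV3-1 is higher in all 5 DNP animals, whereas for IGHV5-29 and IGHV5-31 DNP2 lies at 6.49% and 13.4%, near or among the HuD animals.

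The same division of the animals was seen outside IGHJ2, in the FR4 of IGHJ4. WGQGASVTVSS was carried by 71.4%, 68.2%, 82.9%, 83.6% and 75.0% of the IGHJ4 reads in HuD1 to HuD5 and by 0.813%, 76.9%, 0.558%, 0.541% and 0.733% in DNP1 to DNP5. In the animals where it was scarce, WGQGTSVTVSS took its place, with 89.5% in DNP1, 90.6% in DNP3, 86.7% in DNP4 and 76.3% in DNP5. DNP2 was therefore with the HuD animals in both IGHJ4 and IGHV5-29, and apart from them in IGHV3-1. The FR4 of IGHJ2 showed no such division, with WGQGVMVTVSS between 79.5% and 90.3% in every animal. Outbred animals can differ in inherited immunoglobulin genes, and the part of such differences in the IGHV use of the IGHJ2 reads was not tested.

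Of the 76 IGHV genes, 6 did not overlap between the HuD and the DNP animals (7.89%), namely IGHV3-1, IGHV5-29, IGHV2-45, IGHV5-43, IGHV5-54 and IGHV2S30, the last 4 named after their values were seen. IGHV2-45, for example, held 0.561%, 0.658%, 0.222%, 0.680% and 0.255% of the IGHJ2 reads in HuD1 to HuD5, against 0%, 0.142%, 0%, 0.00315% and 0% in DNP1 to DNP5. In IGHV2-45, IGHV5-43, IGHV5-54 and IGHV2S30, DNP2 was the highest of the DNP animals. Leaving out DNP2 raised the number of genes that passed to 28, of which 20 were higher and 8 lower in HuD animals. With all animals, DESeq2 called 17 genes, 10 higher and 7 lower in HuD animals, and limma 15, of which 13 were higher and 2 lower.

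IGHV5-22 was the most used IGHV gene with IGHJ2 on average, with a single animal far above the others. It held 44.7% of the IGHJ2 reads in DNP3 and 2.69% to 12.1% in the other DNP animals, against 2.99% to 7.47% in HuD animals. Its difference between the immunogens did not pass (log2 fold change -2.31, adjusted p = 0.133), but did without DNP2 (-2.58, adjusted p = 0.00874). Without DNP3, the animal with the high value, it was -0.85 (adjusted p = 0.270 in edgeR), and with each pair of CDR3 and IGHV gene counted once it was -0.59 (adjusted p = 0.362).

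The IGHD gene forms the middle of CDR3, and its name is read from the same junction as the IGHJ name. The 5 most used IGHD genes in IGHJ2 reads were IGHD1-11 (12.2% ± 4.82, n = 10), IGHD1-12 (11.5% ± 4.52), IGHD4-3 (8.59% ± 5.13), IGHD1-2 (8.02% ± 4.08) and IGHD1-1 (6.86% ± 2.16). Among the other reads, IGHD1-11 held 12.6% ± 4.01, IGHD1-12 10.7% ± 4.57, IGHD4-3 6.72% ± 1.93, IGHD1-2 11.2% ± 2.84 and IGHD1-1 9.78% ± 7.88. None of the 33 IGHD genes passed in edgeR's test of IGHJ2 against the other IGHJ genes (0% called), with 4 genes at an unadjusted p under 0.05, and DESeq2 called 2 and limma 0. Without DNP5, edgeR called 2. When each pair of CDR3 and IGHV gene was counted once, 6 IGHD genes passed, among them IGHD1-2, which was lower with IGHJ2 (log2 fold change -0.63, adjusted p = 2.79e-06) and also lower by reads in 8 of 10 animals.

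Between the immunogens, none of the 33 IGHD genes passed within the IGHJ2 reads in edgeR (0% called), with 3 at an unadjusted p under 0.05 and none in DESeq2 or limma. IGHD1-12 and IGHD4-3 reached 22.1% and 22.0% of the IGHJ2 reads in DNP3, the animal in which IGHV5-22 was so frequent. In the other DNP animals IGHD4-3 stood between 3.52% and 8.12%, and in HuD animals between 5.98% and 10.2%. No IGHD gene was named for 2.65% of the IGHJ2 reads and for 1.77% of the other reads.

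CDR3s with IGHJ2 were shorter than those with the other IGHJ genes in every animal. Over unique CDR3s, the mean length was 11.3 ± 0.413 residues with IGHJ2 and 12.9 ± 0.284 with the other IGHJ genes (SD, n = 10). The difference was -1.56 residues, with IGHJ2 shorter in 10 of 10 animals (exact sign-flip permutation test, two-sided p = 0.00195, the smallest possible, adjusted p = 0.00195 over 3 comparisons within animals). IGHJ2 was shorter than each of the other genes taken alone, by 1.01 residues than IGHJ3 (12.3 ± 0.337), by 1.78 than IGHJ4 (13.1 ± 0.340) and by 2.24 than IGHJ1 (13.5 ± 0.295). Germline IGHJ genes encode different numbers of CDR3 residues, and the part of this in the difference was not tested.

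**Figure D3:**
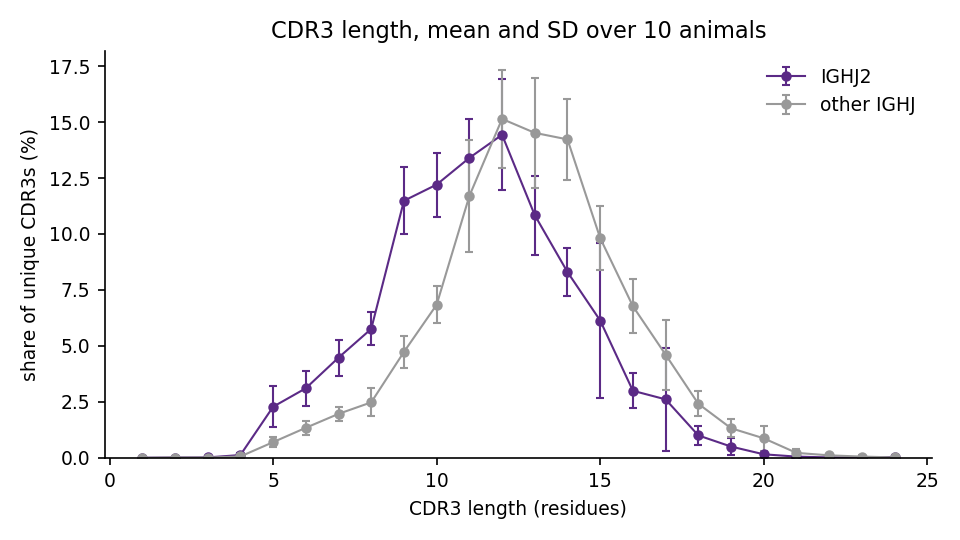
Share of unique CDR3s (%) at each CDR3 length (residues) for IGHJ2 and the other IGHJ genes, as the mean and SD over 10 animals, drawn up to 24 residues. At 9 residues IGHJ2 has 11.5% and the other genes 4.73%, both peak at 12 residues, and at 14 residues IGHJ2 has 8.30% and the others 14.2%.

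IGHJ2 was more frequent among short and less frequent among long CDR3s. IGHJ2 held 72.9% ± 4.38 of the unique CDR3s of up to 6 residues, 68.1% ± 3.82 of those with 9 or 10, 41.1% ± 4.67 of those with 13 or 14 and 31.5% ± 11.9 of those with 17 or more. It was thus the main gene of short CDR3s and a minority gene of long ones. Between the immunogens, the mean length of IGHJ2 CDR3s was 11.3 ± 0.201 residues in HuD animals and 11.3 ± 0.582 in DNP animals, a difference of 0.0826 residues that was within the spread (exact permutation test, n = 5 each, p = 0.762, adjusted p = 0.786). The DNP animals ranged from 10.6 to 12.0 residues and enclosed all HuD animals. The shortening with IGHJ2 did not differ detectably between the immunogens, at -1.64 residues in HuD and -1.48 in DNP animals (exact permutation test of the difference, p = 0.437).

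The end of CDR3 varied in how many residues of the most frequent end it held. The most frequent last 4 residues, YFDY, closed 25.0% ± 2.08 of the unique IGHJ2 CDR3s (n = 10). Exactly the last 3 of these residues (FDY) were found in 22.6% ± 1.48, exactly the last 2 (DY) in 18.9% ± 1.32, only the final tyrosine in 17.0% ± 1.29 and none in 16.4% ± 1.65. The further from the end, the less often a residue was held, and the final tyrosine was the most constant of them. Of the 10 most frequent ends, 9 closed with FDY, and after YFDY they were led by PFDY (4.78% ± 1.08), GFDY (3.18% ± 0.578), SFDY (2.13% ± 0.252) and LFDY (2.05% ± 0.306). WFAY (1.33% ± 0.479) is the exception, being frequent in CDR3s of the other IGHJ genes (14.4%). Among those genes it was the most frequent end of IGHJ3 only. By reads, WFAY closed 0.422% ± 0.252 with IGHJ2. The ends are a property of the gene that chose the reads and were not tested against other genes.

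Between the immunogens, YFDY closed 25.8% ± 1.61 of the unique IGHJ2 CDR3s in HuD animals and 24.3% ± 2.39 in DNP animals, a difference of 1.53 percentage points (exact permutation test, n = 5 each, p = 0.302, adjusted p = 0.503). Counted by reads, the difference turned to -2.79 percentage points. Some ends were frequent by reads in a single animal. VWDY made up 13.7% of the IGHJ2 reads in DNP3 and at most 1.77% elsewhere, TDGI 5.44% in HuD5 and at most 0.00236% elsewhere, and TSNY 4.00% in DNP1 and at most 0.0260% elsewhere. In HuD5, only 0.845% of the unique IGHJ2 CDR3s ended in TDGI.

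The most abundant IGHJ2 CDR3 was a different sequence in each of the 10 animals. In the HuD animals these were ARDAGILRY (HuD1, 2.90% of the IGHJ2 reads), AVAGYGY (HuD2, 1.06%), TRGGYFRY (HuD3, 5.21%), ARHGYNSYFDY (HuD4, 5.67%) and TRGTYFRH (HuD5, 2.57%). In the DNP animals they were ARWTRYFDY (DNP1, 5.48%), a CDR3 of 15 residues joined to IGHV4-2 (DNP2, 3.39%), ARHVLPLRVWDY (DNP3, 8.95%), TTDFERGY (DNP4, 2.15%) and ARQPTGMDY (DNP5, 1.83%). ARHVLPLRVWDY was joined to IGHV5-22 in 85.1% of its reads, and ARWTRYFDY and ARQPTGMDY to IGHV3-1 in 98.2% and 92.8%. The leading IGHV gene held less for AVAGYGY (57.0%), ARHGYNSYFDY (51.8%) and TTDFERGY (23.6%). Each of the 10 CDR3s was named with 13 to 30 IGHV genes. The IGHV name thus varied between reads of the same CDR3. Each of the 10 CDR3s was also read with another IGHJ gene. This ranged from 4 reads (ARDAGILRY, beside 2476 with IGHJ2) to 116 reads (ARHGYNSYFDY, beside 5947). A CDR3 read with both can count in both classes where IGHJ2 is set against the other IGHJ genes. The cause of the varying names was not tested. Of the 10 CDR3s, ARDAGILRY and AVAGYGY were read with IGHJ2 in a single animal. TRGGYFRY was read 4445 times in HuD3, 2510 times in HuD5 and 118 times in HuD4, and ARWTRYFDY 4239 times in DNP1, 558 times in DNP5 and 179 times in HuD5. The end FDY was found in 3 of the 10, those of HuD4, DNP1 and DNP2.

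Most IGHJ2 CDR3s were seen in a single read. Between 81.7% (HuD4) and 87.8% (DNP2) of the productive reads of a library rested on 1 sequenced copy. Rare CDR3s and CDR3s made by sequencing errors cannot be told apart in these counts. Of the unique IGHJ2 CDR3s of an animal, 74.5% ± 5.79 had 1 read, against 75.8% ± 5.85 with the other IGHJ genes, and the share was lower with IGHJ2 in 10 of 10 animals (difference -1.27 percentage points, exact sign-flip permutation test, two-sided p = 0.00195, adjusted p = 0.00195). The size of this difference is small beside the spread between animals, and its direction was shared by all. As IGHJ2 had more reads, both classes were thinned to 22834 reads per animal, which gave 67.9% ± 4.01 with IGHJ2 and 70.6% ± 4.98 with the others. The 100 most abundant CDR3s held 47.6% ± 9.47 of the IGHJ2 reads and 47.6% ± 8.96 of the other reads.

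IGHJ2 CDR3s recurred in other animals more often than those with the other IGHJ genes. Of an animal's unique IGHJ2 CDR3s, 7.48% ± 1.61 were also read with IGHJ2 in at least 1 other animal, against 4.53% ± 1.31 of the CDR3s of the other IGHJ genes. The difference of 2.94 percentage points was positive in 10 of 10 animals (exact sign-flip permutation test, two-sided p = 0.00195, adjusted p = 0.00195) and was 2.30 at equal numbers of reads and 1.88 with pairs of CDR3 and IGHV gene as the unit. Sharing is mutual, so the values of the animals are not independent. The other IGHJ genes were pooled, so each of them had fewer reads than IGHJ2 also at equal numbers of reads. Sharing was not compared gene by gene. When the classes were compared among CDR3s of the same length, the difference was 0.136 percentage points and no longer passed (exact sign-flip test, p = 0.494). Within lengths it averaged -0.205 percentage points in HuD and 0.478 in DNP animals.

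Sharing fell steeply with length in both classes. Among CDR3s of up to 6 residues, 31.3% ± 2.27 were shared with IGHJ2 and 26.7% ± 4.14 with the others, higher with IGHJ2 in 10 of 10 animals. At 11 or 12 residues the shares were 3.80% ± 1.72 and 4.47% ± 1.43, and IGHJ2 was higher in only 1 of 10 animals. At 17 residues or more they were 0.702% ± 0.545 and 0.701% ± 0.962. These lengths were compared after the data had been seen and were not tested one by one.

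**Figure D4:**
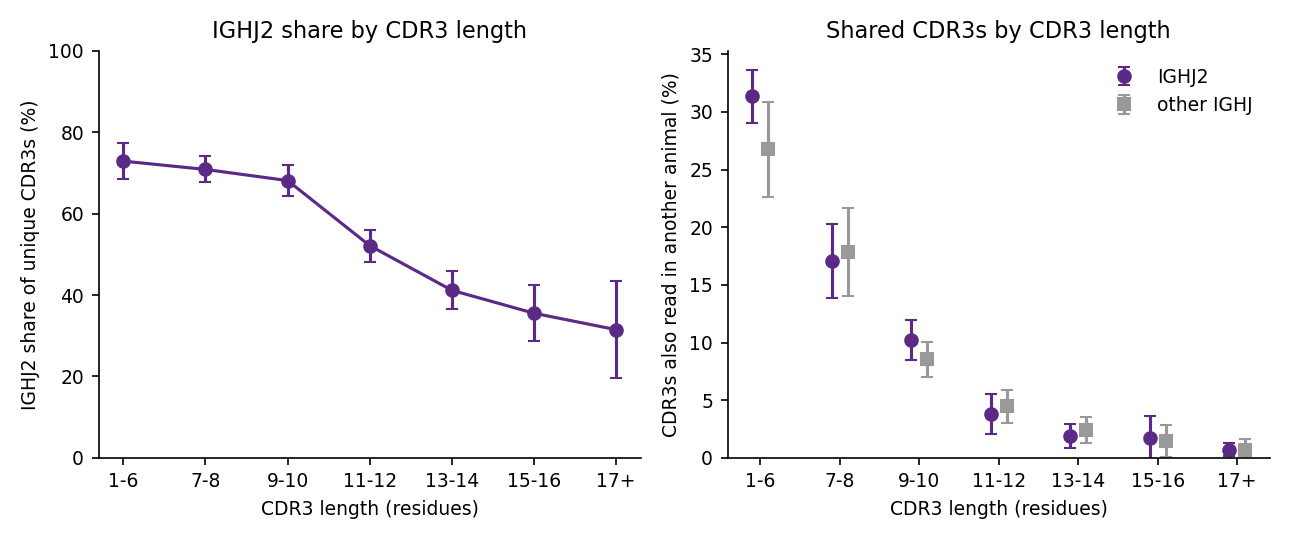
Left, the IGHJ2 share of unique CDR3s (%) by CDR3 length (residues), and right, the share of unique CDR3s also read in another animal (%), for IGHJ2 and the other IGHJ genes, each as the mean and SD over 10 animals. IGHJ2 falls from 72.9% of the shortest to 31.5% of the longest CDR3s, and sharing from 31.3% to 0.702% for IGHJ2.

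Over all animals, 113491 different IGHJ2 CDR3s were read, of which 110229 (97.1%) occurred in a single animal, 3262 (2.87%) in at least 2 and 188 (0.166%) in at least 5. CDR3s made by sequencing errors were not removed from these counts. The mean length was 11.5 residues for those of a single animal and 7.40 for those of 5 animals. Only 2 were read in all 10 animals, ARGDY with 59 reads and TTGDY with 37 reads. Both close with the last 2 residues of the full end, DY. Of the 10 most widely shared, the most abundant was ARHNSGYFDY, with 208 reads in 9 animals. VREELGVDY, VREAFGVDY and VREDLGVDY, which differ from each other only at residues 4 and 5, were each read in 9 animals and were joined to IGHV4-2 in 86.8%, 90.7% and 93.7% of their reads. The others of these 10 were ARWDY, ARQFDY, ARRGDYFDY and ARRGY, at 19 to 108 reads.

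Few IGHJ2 CDR3s were read in every animal of an immunogen and in no other animal, namely 8 for HuD and 1 for DNP. In total 37 were read in all 5 HuD animals and 10 in all 5 DNP animals, and the smallest library, DNP3 with 37813 IGHJ2 reads, limits the count for DNP. Mixed sets of 5 animals, which the authors used as a control, were not counted here. An excess over such sets is therefore not shown. ASRDY had 404, 424, 3, 74 and 3 reads in HuD1 to HuD5 and no read in DNP animals, and 61.5% of its reads were joined to IGHV5-29, the gene that was scarce in 4 DNP animals. TTGRDY (139 reads), ARHNSGYGYFDY (67 reads), TRENYYSADY (48 reads) and TRDLYDFDY (42 reads) followed. ARPDH, the only such CDR3 of the DNP animals, had 128, 1, 104, 27 and 48 reads in DNP1 to DNP5 and was joined to IGHV5-7 in 68.2% of its reads.

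Animals with the same immunogen had more of their IGHJ2 reads in common CDR3s than animals with different immunogens. The overlap of a pair was taken as the geometric mean of the shares of the IGHJ2 reads of both animals that lay in their common CDR3s. Its median was 6.48% over the 10 pairs of HuD animals (3.00% to 11.7%), 6.56% over the 10 pairs of DNP animals (2.79% to 36.1%) and 2.37% over the 25 mixed pairs (0.829% to 7.11%). On the log10 scale, the mean of pairs with the same immunogen lay 0.487 above that of mixed pairs (exact permutation test over the divisions of 10 animals into 5 and 5, p = 0.00794, the smallest possible, adjusted p = 0.0397 over 5 comparisons). Leaving out each animal in turn gave 0.419 to 0.569, each at an exact p of 0.00794. With CDR3s of at least 2 reads the difference was 0.753, and with pairs of CDR3 and IGHV gene 0.733, at the same exact p. With the other IGHJ genes pooled, the medians were 1.89% over HuD pairs, 1.91% over DNP pairs and 0.562% over mixed pairs. The classes were not compared at equal numbers of reads or tested against each other.

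DNP3 and DNP4 formed the pair with the highest overlap, with 243 common IGHJ2 CDR3s that held 46.7% of the IGHJ2 reads of DNP3 and 27.9% of those of DNP4. DNP2 overlapped by 2.79% to 16.6% with the other DNP animals and by 2.37% to 7.11% with the HuD animals. Of the 873519 pairs of tag and CDR3 in IGHJ2 reads, 1394 (0.160%) were found in several animals, and without their reads the difference was 0.516. The authors found no read shared between samples in both sequence and tag, a measure unlike the pairs of tag and CDR3. As the animals also divided by IGHV genes and by the FR4 of IGHJ4, with 4 of 5 DNP animals apart from all others, the part of these differences in the overlap was not tested.

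The FR4 of IGHJ2 was complete, with 11 residues, in 875044 of the 875061 reads and took 5114 forms. WGQGVMVTVSS was carried by 90.3%, 84.8%, 86.2%, 88.5% and 89.7% of the IGHJ2 reads in HuD1 to HuD5 and by 87.2%, 84.4%, 89.5%, 81.8% and 79.5% in DNP1 to DNP5. The groups overlapped, with 87.9% ± 2.35 in HuD and 84.5% ± 4.00 in DNP animals, and the difference of 3.41 percentage points did not pass (exact permutation test, n = 5 each, p = 0.151, adjusted p = 0.377). Counted once per pair of CDR3 and FR4, the sequence was carried by 76.1% ± 2.13 in HuD and 71.2% ± 3.03 in DNP animals, a difference of 4.92 percentage points with an unadjusted exact p of 0.0238. Without DNP3 the difference by reads was 4.66 percentage points with an exact p of 0.0476.

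The other frequent forms differed from WGQGVMVTVSS at a single residue. WGQGVLVTVSS was carried by 0.895% ± 0.294 of the IGHJ2 reads in HuD and 1.45% ± 0.414 in DNP animals (exact permutation test, p = 0.0476, not adjusted over the 5 most frequent forms). WGHGVMVTVSS was carried by 0.823% ± 0.569 in HuD and 1.04% ± 0.549 in DNP animals. WGQGIMVTVSS was carried by 0.966% ± 0.527 in HuD and 0.895% ± 0.223 in DNP animals, and WGQGVTVTVSS by 0.451% ± 0.199 in HuD and 1.33% ± 1.12 in DNP animals. WGQGVTVTVSS was highest in DNP4, at 3.09%. By position, the residue differed most often at position 6 (4.88% ± 1.73 of the reads, n = 10), followed by position 3 (3.26% ± 1.39), position 5 (2.58% ± 0.775) and position 8 (2.20% ± 1.30). The tryptophan at position 1 and the glycines at positions 2 and 4, part of the conserved start of FR4, differed in 0.709%, 0.482% and 0.410% of the reads. The valine at position 7 (0.450%) and the serine at position 10 (0.641%) also differed seldom. No difference between HuD and DNP animals passed at any of the 11 positions (exact permutation tests, lowest p = 0.103 and lowest adjusted p = 0.655). Sequencing errors and mutations cannot be told apart in these counts.

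**Figure D5:**
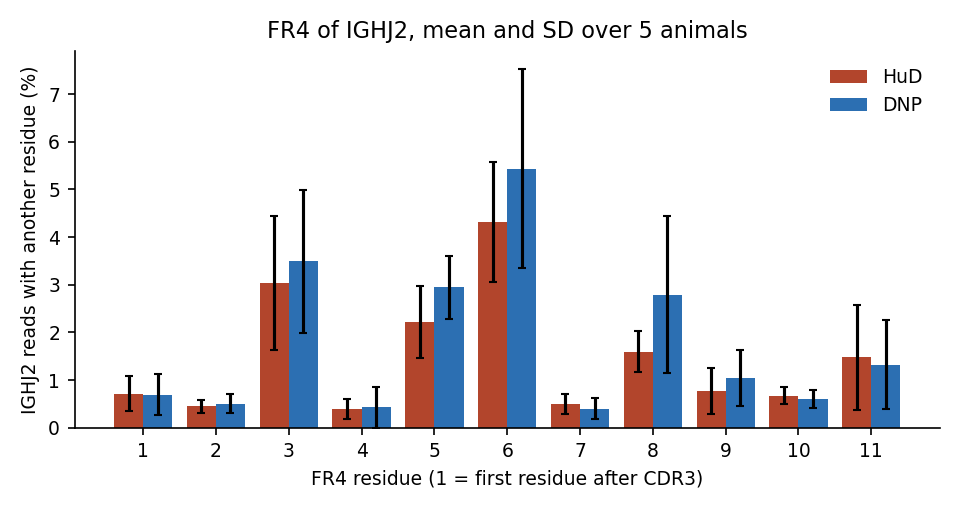
Share of IGHJ2 reads (%) with another residue than the most frequent at each of the 11 FR4 positions, counted from the first residue after CDR3, as the mean and SD over 5 HuD animals (left bars) and 5 DNP animals (right bars). Position 6 is the highest, with 4.32% in HuD and 5.44% in DNP animals, and the SDs of the groups overlap at every position.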

How the data were processed

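Heavy chain variable domains were amplified by the authors from splenocyte cDNA, sequenced in a single MiSeq run, merged with PEAR, collapsed by molecular tag with MIGEC (minimum tag count 1, with 10 CDR3 bases as further tag) and annotated with High-VQuest. The versions of these tools and the germline reference were not given in the sources used here. In each of the 10 deposited files the authors give a count of sequenced copies beside each collapsed sequence. A collapsed sequence was used as 1 read. The number of sample columns not used was 0.

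The members and lists were chosen with earlier results of these data known. Productive reads were taken, and the first named gene was used. Shares, lengths and overlaps were computed in Python 3.11.15 (scipy 1.17.1, pandas 2.3.3, numpy 2.4.6) and plotted with matplotlib 3.10.9. Numbers of reads per IGHV or IGHD gene with at least 100 reads were tested with edgeR 4.0.16 (quasi-likelihood, TMM) in R 4.3.3, p-values adjusted by Benjamini-Hochberg (called at 0.05), and with DESeq2 1.42.0 and limma 3.58.1, on log2 of each gene's RPM plus a pseudocount of 10, as alternatives. For IGHJ2 against other IGHJ genes, each animal had 2 columns and a term of its own. Single values were tested by exact permutation, whose smallest p is 0.00794 between the immunogens and 0.00195 within animals. The overlap of 2 animals was tested as log10 of the geometric mean of the read shares plus 1e-09. Thinning used 10 draws with fixed seeds. The permutation tests and the edgeR fit of IGHJ2 against other IGHJ genes were tested on simulated data. No counting intervals are given, since the animals and not the reads are the replicates.

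Named were the 10 IGHV and 5 IGHD genes with the highest mean share of IGHJ2 reads, those past the threshold that moved the same way in all 10 animals or did not overlap between the immunogens, the most abundant and most widely shared CDR3s, those of a single immunogen, and the most frequent FR4 sequences and CDR3 ends. CDR3s of 15 or more residues are not printed.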

Additional observations from a re-analysis of the deposited data

Results flagged for a closer look

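In 62 groups of 5 animals, the highest or lowest value was compared with the range of its group (Dixon's criterion, 0.71 for 5 values). By chance about 1 in 20 groups meets it, and 10 met it here.

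For DNP2 among the DNP animals this concerned the shares of IGHJ2 reads of IGHV5-29 (6.49%, next highest 0.556%), IGHV5-31 (13.4%, next 5.03%), IGHV4-2 (14.5%, next 4.73%), IGHV1-57 (0.0260%, next 0.00236%) and IGHV5S11, where DNP2 was the lowest (0.0489%, next lowest 1.39%). DNP3 met it for IGHV5-22 (44.7%, next 12.1%) and IGHD4-3 (22.0%, next 8.12%). DNP5 met it for IGHV2-16 (0.145%, next 0.0535%) and IGHV6-8 (0.538%, next 0.151%). In HuD2, the 100 most abundant IGHJ2 CDR3s held 30.9% of the IGHJ2 reads, and the next lowest HuD animal had 48.2%.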

How the results depend on the processing

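Of 184 values under alternative settings for the 12 comparisons, 153 kept their direction and their side of the threshold. CDR3 length and single-read CDR3s of IGHJ2 against the other IGHJ genes and the overlap between animals did so under every alternative tried. For IGHV genes with IGHJ2 against other IGHJ genes (6 called), 12 passed with unique pairs of CDR3 and IGHV gene, 12 without a filter, 3 with single-gene reads and 1 to 6 with an animal left out. For IGHV genes of HuD against DNP (2 called), these were 0 with unique pairs, 17 with DESeq2, 15 with limma, 1 without a filter and 1 to 28 with an animal left out. For IGHD genes with IGHJ2 (0 called), they were 6 with unique pairs, 2 with DESeq2 and 0 to 2 with an animal left out, and between the immunogens 1 with unique pairs. The share of IGHJ2, HuD minus DNP, was -0.939 percentage points with copies and -0.661 to 2.71 with an animal left out. The CDR3 length of IGHJ2, HuD minus DNP, was -0.0545 residues by reads, -0.00399 with at least 2 reads per CDR3 and -0.0767 to 0.272 with an animal left out. The full end was -2.79 percentage points by reads. The most frequent FR4 was 4.92 with unique pairs and 2.18 to 4.66 with an animal left out. Sharing within CDR3 lengths was 0.136. The cause of these changes was not tested.

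With the animal number as a replicate block, 2 IGHV genes and 0 IGHD genes were called between the immunogens, as without it. The correlations of the deviations of animals with the same number were -0.10, -0.12, 0.27, 0.05 and 0.02. They were not tested and cannot exclude a pairing by number. Removing reads whose tag and CDR3 occurred in several animals, and taking CDR3s with 1 read only, were chosen after seeing the data and changed no call. The depth limits the number of rare CDR3s that can be seen as shared.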
